A study of Mus musculus with 13 samples.

Results

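Expression of 10 genes linked to reactive astrocytes was followed in the frontal cortex of 5XFAD and wild-type mice: Serpina3n, Timp1, Gfap, Vim, Cd44, Osmr, S1pr3, Lcn2, Steap4 and Aspg. They were taken by symbol as a named list and make up 10 of the 55536 genes in the quantification files. The list was chosen with earlier results of these data known, so its counts beside the shares over all genes are a description. The study sequenced 13 RNA libraries. At 11 months there were 3 libraries from 5XFAD mice and 3 from wild-type (WT) mice of the strain labelled B6SJLF1/J. At 6 months there were 3 from 5XFAD mice and 4 from WT mice. 5XFAD mice carry mutated human transgenes, APP among them, driven by the regulatory sequence of the neuronal gene Thy1, and are used as a model of amyloid deposition. The labels name no treatment. Whether each library came from a separate animal is not stated, so p-values speak only to the spread between libraries, part of which may be technical. The question asked of the list was which of its genes, beside Serpina3n, differed more between the genotypes at 11 months than at 6 months.

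Astrocytes answer injury, infection and amyloid by becoming reactive: the cell body and processes thicken, intermediate filament genes are induced, and secreted inhibitors, receptors and acute phase genes follow. Gfap and Vim encode the filaments. Serpina3n and Timp1 encode secreted inhibitors, of serine proteases and of matrix metalloproteinases. Cd44, Osmr and S1pr3 encode cell surface receptors for hyaluronan, for oncostatin M and for sphingosine 1-phosphate. Lcn2 encodes a secreted carrier of iron-binding siderophores, Steap4 a metalloreductase, and Aspg an asparaginase. In mouse brain these genes are widely used as a shared signature of reactive astrocytes after inflammation and after stroke, although several are also made by microglia, vessels or infiltrating cells.

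Library totals ran from 23618296 to 26615776 counts. Markers of neurons, astrocytes and oligodendrocytes were abundant in all libraries, as the tissue label states. The sex of each library, read from Xist and Y-linked genes, was not balanced: 5XFAD libraries at 11 months were 2 female and 1 male, WT libraries at 11 months 1 female and 2 male, 5XFAD libraries at 6 months 3 male, and WT libraries at 6 months 2 female and 2 male. WT replicate 1 at 6 months carried 2995 CPM of summed choroid plexus markers, against at most 34.8 CPM in the libraries of the 5XFAD group of that age. Levels are CPM, counts scaled to a common library total, after TMM scaling, which corrects library totals for composition. Tests are edgeR's quasi-likelihood test with Benjamini-Hochberg adjustment over the 17483 genes tested. Log2 fold changes are given with standard errors, and a gene is said to have risen or fallen only where its adjusted p was under 0.05.

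At 11 months, 8 of the 9 tested genes of the list rose in 5XFAD cortex: Serpina3n, Gfap, Timp1, Cd44, Vim, Osmr, Aspg and S1pr3. Of all genes tested, 3.80% rose in that comparison. At 6 months Serpina3n and Gfap rose, against 1.30% of all genes, and DESeq2 called 5 of the 9. The difference between the 2 ages passed the test for Serpina3n, which was the sole gene of all those tested to do so (0.00572%). Every 5XFAD library lay above every WT library for 8 of the 10 genes at 11 months, against 10.4% of all genes tested, and for 6 of the 10 at 6 months, against 6.97%. The median log2 fold change over the tested genes of the list was 1.93 at 11 months and 1.14 at 6 months, beside -0.03 and -0.01 over all genes. Of the 10 genes, 9 passed the filter on low counts. Timp1 passed it with 4 of 6 5XFAD libraries and 1 of 7 WT libraries over the filter level of 0.407 CPM, so its place among the tested genes rests mainly on the group where it was high. Steap4 did not pass.

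**Figure D1:**
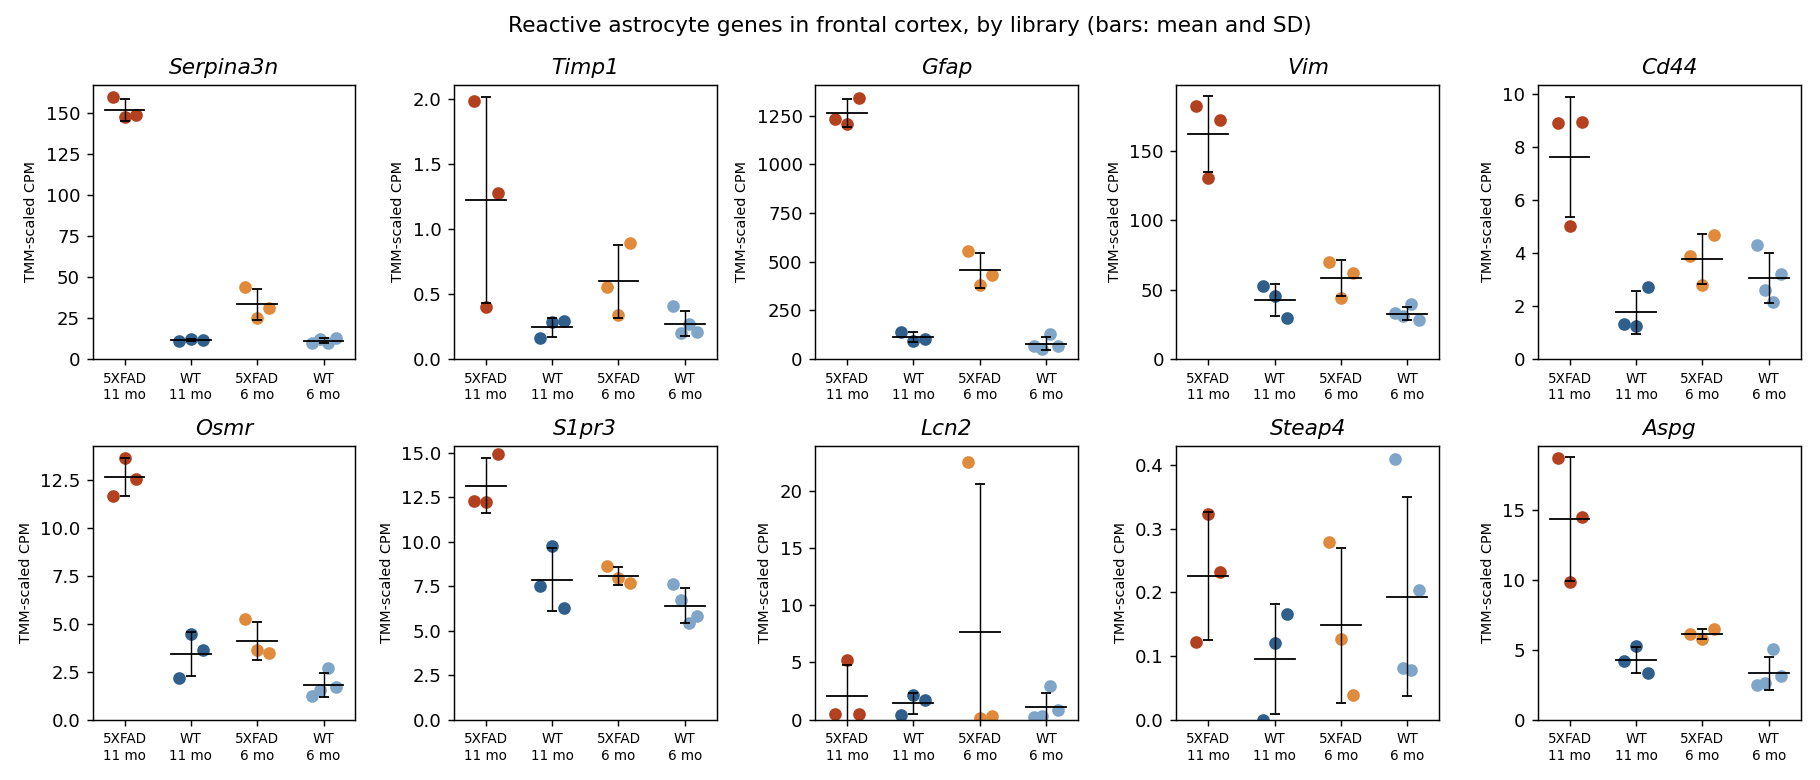
TMM-scaled CPM of the 10 genes in each library, 1 panel per gene with its own linear axis from 0; points are libraries, the horizontal line is the group mean and the whiskers are the SD, stopped at 0 (n = 3, or 4 for WT at 6 months). Serpina3n, Gfap, Vim, Cd44, Osmr, S1pr3 and Aspg lie higher in every 5XFAD library of 11 months than in any other library, while Lcn2 is high in single libraries, up to 22.5 CPM in 5XFAD at 6 months.

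The protease inhibitors come first. Serpina3n (ENSMUSG00000021091; GRCm38 chromosome 12, 104406729 to 104414329) had 159.9, 148.1 and 148.8 CPM in 5XFAD libraries at 11 months, against 10.8, 12.3 and 11.9 CPM in WT libraries. At 6 months it had 43.8, 25.2 and 31.4 CPM in 5XFAD libraries, against 9.95, 12.4, 10.1 and 12.6 CPM in WT libraries. The 2 genotypes did not overlap at either age, the 5XFAD libraries of 11 months all lay above those of 6 months, and the 7 WT libraries sat together whatever their age. The log2 fold change was 3.71 ± 0.18 at 11 months (adjusted p = 9.39e-08), the second smallest p of all genes, and 1.57 ± 0.15 at 6 months (adjusted p = 7.80e-05). The change at 11 months exceeded that at 6 months by 2.13 ± 0.23 (95% interval 1.65 to 2.62, adjusted p = 0.00456). Serpina3n is the mouse counterpart of human alpha-1-antichymotrypsin in a locus that is expanded in mice, and its estimated counts were whole numbers in all 13 libraries, as were those of the other 9 genes.

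The window of 250 bases before the RefSeq start of Serpina3n is shown because it is the proximal sequence of the gene with the smallest p for the difference between the ages, and that of Gfap because Gfap was the other gene of the list to rise at both ages. Both are from RefSeq on GRCm38.p6, 5′ to 3′ on the gene's strand, and hold no exon of the gene. The Gfap window lies inside the GENCODE coordinates of Gfap, which begin farther upstream than the RefSeq start.
Serpina3n (chr12:104406458-104406707, plus strand): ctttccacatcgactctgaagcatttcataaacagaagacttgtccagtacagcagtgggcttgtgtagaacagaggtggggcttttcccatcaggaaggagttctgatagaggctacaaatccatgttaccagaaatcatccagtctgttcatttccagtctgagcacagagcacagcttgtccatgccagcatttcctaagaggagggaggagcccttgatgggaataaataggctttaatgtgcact
Gfap (chr11:102897201-102897450, minus strand): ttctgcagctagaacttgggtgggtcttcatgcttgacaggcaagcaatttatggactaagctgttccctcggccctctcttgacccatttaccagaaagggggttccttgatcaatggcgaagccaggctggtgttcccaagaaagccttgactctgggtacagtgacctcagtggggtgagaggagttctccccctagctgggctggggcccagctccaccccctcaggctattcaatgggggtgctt
The STAT motif TTCNNNGAA, the palindrome bound by factors downstream of the oncostatin M receptor, and the AP-1 motif TGANTCA were searched on both strands in this window for all 10 genes. Exons of the gene itself overlap the windows of Lcn2 (4 exons), Vim (2), Osmr, Steap4 and Aspg (1 each). Neither motif was present in the windows of Serpina3n and Gfap. The STAT motif occurred in 1 of the 10 windows, that of Steap4, against 7.02% of 32851 RefSeq mouse promoter windows, and AP-1 in 0 of 10, against 6.75%, so no window held both. The Steap4 match (capitals) begins 116 bases before the start.
Steap4 (chr5:7960346-7960374, plus strand): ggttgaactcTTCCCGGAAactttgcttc

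Timp1 (ENSMUSG00000001131; chromosome X, 20870166 to 20874735), an inhibitor of matrix metalloproteinases that lies within Syn1 on the opposite strand, was rare. It had 1.98, 0.40 and 1.28 CPM in 5XFAD libraries at 11 months, against 0.16, 0.28 and 0.29 CPM in WT libraries. The 6-month levels were 0.56, 0.34 and 0.89 CPM in 5XFAD libraries, against 0.41, 0.20, 0.27 and 0.20 CPM in WT libraries. At 11 months all 5XFAD libraries lay above all WT libraries, although 5XFAD replicate 2 came close, and at 6 months the genotypes overlapped. Timp1 had a log2 fold change of 2.32 ± 0.57 at 11 months (adjusted p = 0.034) and 1.14 ± 0.55 at 6 months (adjusted p = 0.563), and their difference was 1.18 ± 0.80 (95% interval -0.54 to 2.91). The call at 11 months ended under 8 of 20 alternatives, among them sex as a covariate (adjusted p = 0.133), and it rests on 92 counts over the 3 5XFAD libraries and 18 over the 3 WT libraries.

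Among the filament genes, Gfap (ENSMUSG00000020932; chromosome 11, 102887336 to 102900912), the defining intermediate filament of astrocytes, was the most abundant gene of the list. It had 1235, 1210 and 1344 CPM in 5XFAD libraries at 11 months, against 139.3, 92.6 and 105.4 CPM in WT libraries. The younger 5XFAD libraries had 555.6, 381.0 and 433.8 CPM at 6 months, against 66.0, 54.1, 127.2 and 64.6 CPM in WT libraries. The genotypes were far apart at both ages, and 1 WT library of 6 months, replicate 3, stood above the other 3 and within the range of WT at 11 months. Gfap rose by 3.49 ± 0.30 at 11 months (log2, adjusted p = 1.89e-05) and by 2.55 ± 0.26 at 6 months (adjusted p = 0.000189), higher than that of Serpina3n at the younger age. The difference between the ages was 0.94 ± 0.38 (95% interval 0.12 to 1.76, unadjusted p = 0.0285) and did not pass the test over all genes (adjusted p = 0.9995).

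Vim (ENSMUSG00000026728; chromosome 2, 13573927 to 13582826), a filament shared by reactive astrocytes, vessels and immune cells, had 182.8, 131.0 and 172.9 CPM in 5XFAD libraries at 11 months, against 52.6, 45.7 and 29.5 CPM in WT libraries. Levels at 6 months were 69.7, 43.9 and 61.7 CPM in 5XFAD libraries, against 33.3, 30.8, 39.4 and 27.9 CPM in WT libraries. No WT library reached the lowest 5XFAD library of its age, but at 6 months the gap was narrow. The log2 fold change was 1.93 ± 0.23 at 11 months (adjusted p = 0.000208) and 0.83 ± 0.21 at 6 months (adjusted p = 0.0887). The difference between the ages was 1.10 ± 0.30 (95% interval 0.44 to 1.76, unadjusted p = 0.00341, adjusted p = 0.825). The other intermediate filament genes and their partners did not move with these: by edgeR 0 of 12 were called at either age and 0 of 12 had an unadjusted p under 0.05, and DESeq2 called 0 as well.

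Of the receptors, Cd44 (ENSMUSG00000005087; chromosome 2, 102811141 to 102901665), which binds hyaluronan and osteopontin, had the next largest positive difference between the ages after Serpina3n. It had 8.90, 5.00 and 8.95 CPM in 5XFAD libraries at 11 months, against 1.31, 1.25 and 2.71 CPM in WT libraries. In 5XFAD libraries of 6 months Cd44 had 3.90, 2.79 and 4.66 CPM, against 4.30, 2.60, 2.13 and 3.19 CPM in WT libraries. The genotypes were apart at 11 months and intermingled at 6 months. Cd44 had a log2 fold change of 2.12 ± 0.35 at 11 months (adjusted p = 0.00235) and 0.31 ± 0.32 at 6 months (adjusted p = 0.851). The difference between the ages was 1.81 ± 0.48 (95% interval 0.78 to 2.83, unadjusted p = 0.00208), rank 54 of all genes, with an adjusted p of 0.673. Within genotypes, Cd44 was 1.01 ± 0.34 (log2) higher at 11 than at 6 months in 5XFAD (adjusted p = 0.0822) and 0.80 lower in WT (log2 change -0.80 ± 0.34, adjusted p = 0.172). The highest WT library of 6 months was replicate 1, the one with choroid plexus markers, and without it the difference between the ages was 1.60.

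Osmr (ENSMUSG00000022146; chromosome 15, 6813577 to 6874969), the oncostatin M receptor subunit, had 11.7, 13.7 and 12.6 CPM in 5XFAD libraries at 11 months, against 2.19, 4.48 and 3.62 CPM in WT libraries. At 6 months it had 5.25, 3.64 and 3.46 CPM in 5XFAD libraries, against 1.23, 1.54, 2.68 and 1.72 CPM in WT libraries. The genotypes did not overlap at either age, and 2 of the 3 WT libraries of 11 months lay within the 5XFAD range of 6 months, while replicate 1 lay below it. The log2 fold change was 1.88 ± 0.28 at 11 months (adjusted p = 0.00098) and 1.20 ± 0.27 at 6 months, where the adjusted p of 0.0512 lay just past the threshold and was under it in 6 of 21 alternatives. The difference between the ages was 0.68 ± 0.39 (95% interval -0.16 to 1.53). In WT cortex Osmr was 0.93 ± 0.28 (log2) higher at 11 than at 6 months (adjusted p = 0.0676).

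S1pr3 (ENSMUSG00000067586; chromosome 13, 51408639 to 51422797), a receptor for sphingosine 1-phosphate, had small changes. It had 12.3, 12.2 and 14.9 CPM in 5XFAD libraries at 11 months, against 7.49, 9.77 and 6.29 CPM in WT libraries. Levels at 6 months were 8.63, 7.95 and 7.65 CPM in 5XFAD libraries, against 7.62, 6.74, 5.43 and 5.80 CPM in WT libraries. The genotypes were clear of each other at 11 months and barely so at 6 months. S1pr3 had a log2 fold change of 0.74 ± 0.17 at 11 months (adjusted p = 0.0226) and 0.34 ± 0.16 at 6 months (adjusted p = 0.568), with a difference of 0.41 ± 0.24 (95% interval -0.10 to 0.92). The call at 11 months ended under 7 of 21 alternatives, among them sex as a covariate (adjusted p = 0.0547). Exons of S1pr3 overlap those of Gm32834 on the opposite strand. With the strand setting not given, reads within the overlap may be counted for the wrong gene, although the estimated counts of S1pr3 were whole numbers in every library.

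Aspg (ENSMUSG00000037686; chromosome 12, 112106679 to 112127559) had 18.7, 9.88 and 14.5 CPM in 5XFAD libraries at 11 months, against 4.22, 5.25 and 3.37 CPM in WT libraries. In 5XFAD libraries of 6 months Aspg had 6.16, 5.80 and 6.53 CPM, against 2.50, 2.60, 5.04 and 3.10 CPM in WT libraries. The 3 5XFAD libraries of 6 months were close together, those of 11 months were spread widely, and no WT library of either age reached the 5XFAD range of its age. Aspg had a log2 fold change of 1.75 ± 0.28 at 11 months (adjusted p = 0.00153) and 0.89 ± 0.26 at 6 months (adjusted p = 0.176), with a difference of 0.85 ± 0.38 (95% interval 0.04 to 1.67, unadjusted p = 0.0418, adjusted p = 0.9995).

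Lcn2 (ENSMUSG00000026822; chromosome 2, 32384633 to 32388252) followed neither genotype nor age. It had 0.49, 5.20 and 0.50 CPM in 5XFAD libraries at 11 months, against 0.44, 2.18 and 1.71 CPM in WT libraries. At 6 months it had 22.5, 0.17 and 0.31 CPM in 5XFAD libraries, against 0.20, 0.33, 2.91 and 0.86 CPM in WT libraries. In each 5XFAD group 1 library stood far above the other 2, and the genotypes overlapped at both ages. The log2 fold change was 0.52 ± 1.66 at 11 months (adjusted p = 0.926) and 2.83 ± 1.52 at 6 months (adjusted p = 0.647), with no call at either age. Without 5XFAD replicate 2 at 11 months it was -1.54, and without 5XFAD replicate 1 at 6 months -2.16, so the direction at each age rested on 1 library. In all 4 groups the library with the most Lcn2 was also the one with the most Osmr, which was noticed after the values were seen. Lcn2 is also made in quantity by neutrophils. Of 10 neutrophil markers, 1 passed the filter, with a log2 fold change of 3.46 at 11 months and 0.85 at 6 months. It was not called by edgeR at either age. At 11 months its unadjusted p was under 0.05, and DESeq2 called 1 of the 10 markers higher in 5XFAD. The summed level of the 10 markers was 0.66 to 5.08 CPM in 5XFAD and 0.32 to 0.64 CPM in WT libraries at 11 months. At 6 months it was 0.80 to 2.74 CPM in 5XFAD and 0.33 to 0.94 CPM in WT libraries. Ly6g was at 0 in 9 of the 13 libraries. The libraries with the most Lcn2 had the highest summed neutrophil level of their group in both 5XFAD groups, and did not in either WT group, where WT replicate 2 at 11 months was the lowest of its group. The part of such cells in the Lcn2 level was not tested.

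**Figure D2:**
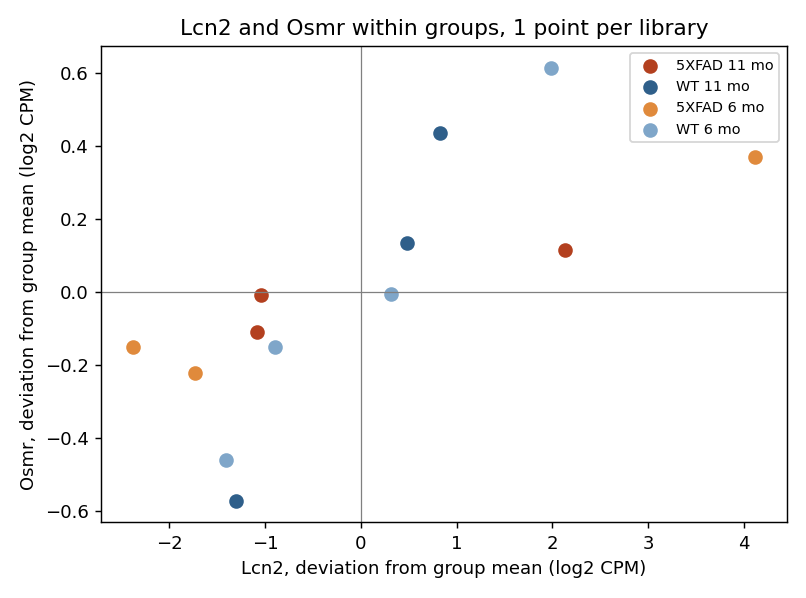
Deviation of each library from its group mean in log2 CPM, Osmr (vertical) against Lcn2 (horizontal), 1 point per library. The library highest in Lcn2 in each group, up to 22.5 CPM in 5XFAD at 6 months, is also highest in Osmr.

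Steap4 (ENSMUSG00000012428; chromosome 5, 7960457 to 7982213) was near the limit of detection. Its level was 0.12, 0.32 and 0.23 CPM in 5XFAD libraries at 11 months, against 0, 0.12 and 0.17 CPM in WT libraries. At 6 months it was 0.28, 0.13 and 0.04 CPM in 5XFAD libraries, against 0.41, 0.08, 0.08 and 0.20 CPM in WT libraries. The highest library was WT replicate 1 of 6 months, which also held the choroid plexus markers, and the genotypes overlapped at both ages. With no filter on low counts the log2 fold change was 1.28 ± 0.94 at 11 months (adjusted p = 0.728) and -0.38 ± 0.84 at 6 months (adjusted p = 0.995), from 17 counts in 5XFAD and 7 in WT libraries at 11 months and 11 in 5XFAD and 19 in WT libraries at 6 months, so a difference was not detectable at this depth.

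**Figure D3:**
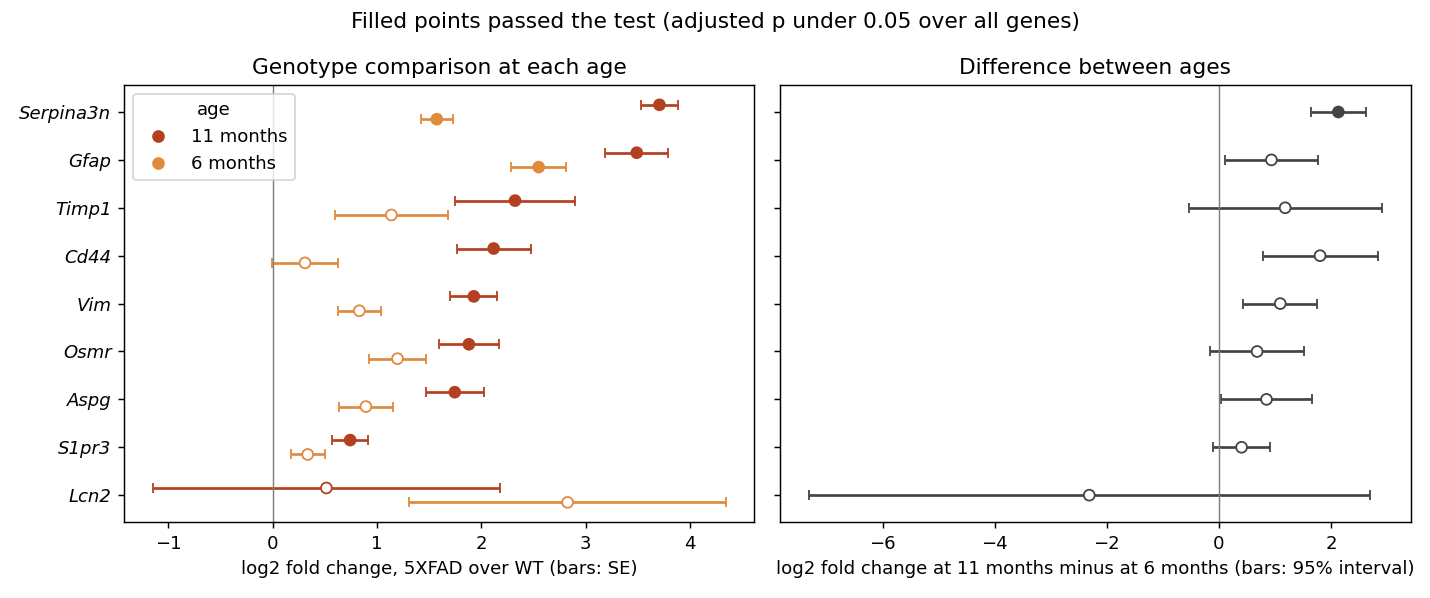
Log2 fold changes of the 9 tested genes, 5XFAD over WT, at 11 and 6 months with standard errors (left), and the difference between the ages with its 95% interval (right); filled points have an adjusted p under 0.05 over all genes. At 11 months 8 points are filled and at 6 months 2, and in the right panel only Serpina3n, at 2.13, is filled, although the intervals of Cd44, Vim, Gfap and Aspg also lie above 0.

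Set beside each other, the differences between the ages ordered the tested genes from the most positive to the negative as Serpina3n, Cd44, Timp1, Vim, Gfap, Aspg, Osmr, S1pr3 and Lcn2. Beside Serpina3n, 4 genes had an interval above 0, Cd44, Vim, Gfap and Aspg, and an unadjusted p under 0.05, which 692 of the 17483 genes had. None of these 4 was called after adjustment in any of 20 alternatives, the lowest adjusted p being 0.079 for Cd44 and 0.0866 for Vim. The intervals of Timp1, Osmr, S1pr3 and Lcn2 included 0 and reached 2.91, 1.53, 0.92 and 2.69 on the log2 scale. The intervals of Cd44, Timp1, Vim, Gfap, Aspg and Lcn2 overlap that of Serpina3n, and whether they differ from it was not tested. Serpina3n had the smallest p of all genes in each of the 20 alternatives, with a difference of 1.98 to 2.37 and an adjusted p of 1.30e-14 to 0.0408.

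Per transcript length, as TPM, the order of levels was similar in the groups but the distances were not. In 5XFAD cortex at 11 months Gfap averaged 670.4 ± 15.8 TPM, Vim 169.8 ± 39.4 and Serpina3n 106.7 ± 7.34 TPM (SD, n = 3), with no overlap between libraries of neighbouring genes. Aspg followed at 10.3 ± 3.72 TPM. S1pr3, Lcn2, Osmr, Timp1 and Cd44 lay between 3.96 and 2.14 TPM on average, where the libraries of Lcn2 and Timp1 overlapped those of all the others, and Steap4 was at 0.0967 TPM. In WT cortex at 11 months Gfap averaged 66.1 ± 18.3 and Vim 48.0 ± 20.1 TPM with overlapping libraries, and Serpina3n 8.94 ± 0.199 TPM. Serpina3n averaged 22.9 ± 6.41 TPM in 5XFAD and 8.46 ± 1.10 TPM in WT cortex at 6 months (n = 3 and 4).

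Change with age was then examined within each genotype. These comparisons share libraries with the ones above and are not independent of them. In 5XFAD cortex 6 of the 9 tested genes rose between 6 and 11 months, against 4.84% of all genes: Serpina3n by 2.19 ± 0.16, the smallest p of all genes (adjusted p = 6.19e-05), Osmr by 1.62 ± 0.28, Vim by 1.47 ± 0.22, Gfap by 1.47 ± 0.28, Aspg by 1.22 ± 0.27 and S1pr3 by 0.70 ± 0.17. Without 5XFAD replicate 2 of 6 months or 5XFAD replicate 3 of 11 months 3 genes were called, the Gfap call ended in both cases, and the S1pr3 and Aspg calls ended under 8 and 5 of 20 alternatives. For 7 of the 10 genes all 5XFAD libraries of 11 months lay above those of 6 months, against 18.4% of all genes. In WT cortex 0 of the 9 were called by edgeR, against 3.71% of all genes called in either direction, with 2 at an unadjusted p under 0.05 and 1, Osmr, called by DESeq2. The libraries of the 2 ages overlapped for all 10 genes in WT, against 9.11% of all genes with every library of 11 months above those of 6 months. Serpina3n in WT was at 11.7 ± 0.808 CPM at 11 months and 11.2 ± 1.42 CPM at 6 months, a log2 change of 0.05 ± 0.16.

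Astrocyte markers outside the list were read beside these changes. Of 20 such markers, 2 rose in 5XFAD at 11 months, Aqp4, the water channel of astrocyte endfeet, by 0.98 and S100b by 0.52, and 0 at 6 months by edgeR or DESeq2, with 5 at an unadjusted p under 0.05. Their summed level was 8544 to 10595 CPM in 5XFAD and 7333 to 11523 CPM in WT libraries at 11 months, and 6782 to 7210 CPM in 5XFAD and 6068 to 6433 CPM in WT libraries at 6 months. The genotypes thus overlapped at 11 months, while at 6 months all 5XFAD libraries lay above all WT libraries. The libraries of 11 months lay above those of 6 months. In bulk tissue, more cells of a type and more RNA per cell cannot be told apart. With library totals scaled to these markers, Serpina3n was 3.57 higher in 5XFAD at 11 months and 1.40 at 6 months (log2), and the difference between the ages was 2.17.

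Microglia markers moved with the list. Of 14 such markers, 13 rose at 11 months, with a median log2 fold change of 1.24, and 9 at 6 months, with a median of 0.93. Their summed level was 1515 to 2147 CPM in 5XFAD and 417.4 to 712.4 CPM in WT libraries at 11 months, and 871.5 to 959.6 CPM in 5XFAD and 401.1 to 412.4 CPM in WT libraries at 6 months. None of the 14 was called for a difference between the ages by edgeR or DESeq2, with 4 at an unadjusted p under 0.05. The part of microglia in the levels of Vim, Cd44 and the other genes of the list that these cells also express was not tested. Markers of endothelium, mural cells, ependyma, choroid plexus and oligodendrocytes held 0 calls by edgeR at either age, while DESeq2 called 1 endothelial marker lower at each age and mural markers lower, 3 at 11 months and 1 at 6 months. At an unadjusted p under 0.05 there were 1 endothelial and 3 mural markers at each age, and 3 choroid plexus markers at 6 months. Of 13 oligodendrocyte markers, 13 were positive at 6 months (median 0.28), 10 at 11 months (median 0.12) and 1 for the difference between the ages. Their summed level at 6 months was 10106 to 12287 CPM in 5XFAD and 6768 to 14264 CPM in WT libraries, highest in WT replicate 3. Their part in the results of the list was not tested. Of 6 border macrophage and monocyte markers, 1 rose at 11 months, Ccr2, which no WT library carried over the filter level, with a list median of -0.11 and 2 of the 6 positive. Of 12 meningeal and fibroblast markers, 1 rose at 11 months, Islr, with a median of -0.12 and 5 of the 12 positive. At 6 months none of the 12 was called by edgeR or DESeq2, 4 had an unadjusted p under 0.05, and 0 were positive (median -0.69). The difference between the ages was positive for 12 of these 12 markers (median 0.60), with 0 called by edgeR, 2 at an unadjusted p under 0.05 and 1 called by DESeq2. Their summed level was 464.2 to 602.7 CPM in 5XFAD and 366.3 to 464.1 CPM in WT libraries at 11 months, and 291.6 to 386.2 CPM in 5XFAD and 262.6 to 397.2 CPM in WT libraries at 6 months, and their part in the results of the list was not tested. Of 10 neuron markers Thy1, whose regulatory sequence drives the transgenes, rose at both ages.

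**Figure D4:**
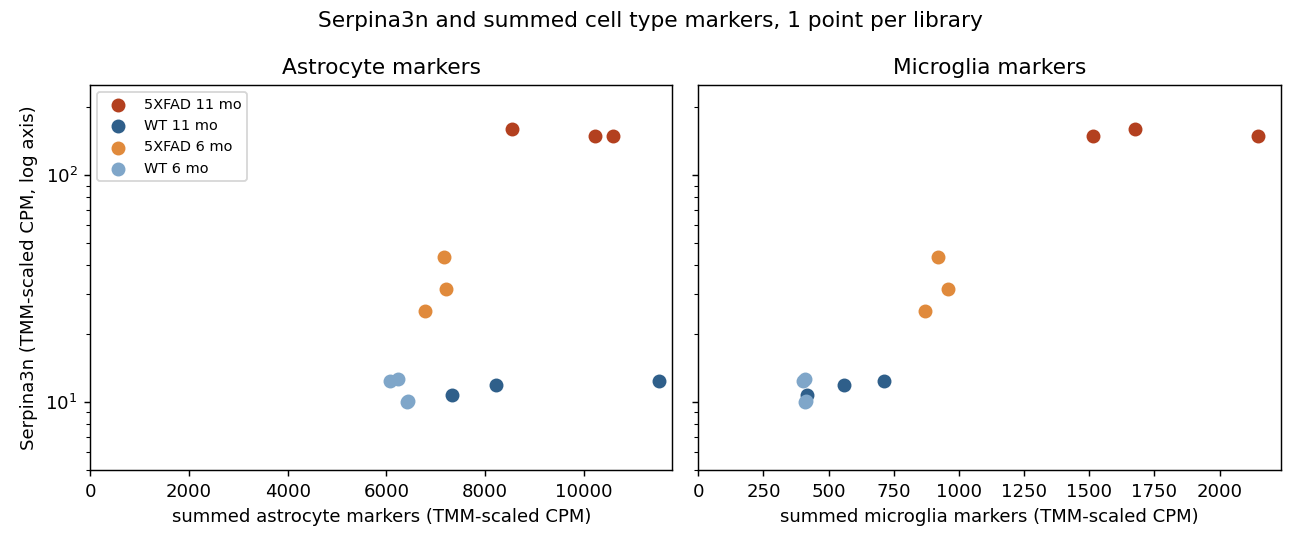
Serpina3n (TMM-scaled CPM, log axis) against the summed level of 20 astrocyte markers (left) and 14 microglia markers (right), 1 point per library. At like astrocyte marker sums, 5XFAD libraries of 11 months lie near 150 CPM and WT libraries near 12 CPM, and 5XFAD libraries of each age lie above all WT libraries in both Serpina3n and the microglia sum.

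The other genes of the reactive astrocyte programme moved in part. Of 12 further pan-reactive genes, 2 rose at 11 months (median log2 fold change 0.20) and 0 at 6 months by edgeR or DESeq2, with 3 at an unadjusted p under 0.05 (median 0.10). Those 2 were Cxcl10, a chemokine, at 4.45 ± 1.34 CPM in 5XFAD and 0.203 ± 0.079 CPM in WT cortex at 11 months, and Stat3, the transcription factor downstream of IL-6 family receptors, at 62.7 ± 5.21 CPM in 5XFAD and 40.1 ± 5.21 CPM in WT cortex. Of the genes first described after lipopolysaccharide, often called A1, 6 of 11 rose at 11 months (median 1.33) and 4 of 11 at 6 months (median 0.39). Ggta1, a galactosyltransferase, rose by 2.33 ± 0.16 at 11 months and by 1.17 ± 0.14 at 6 months, and the class I antigen gene H2-D1 by 1.81 ± 0.17 and 1.06 ± 0.15. Microglia markers also rose at both ages, and the part of microglia in the changes of the A1 genes was not tested. Of the genes first described after stroke, often called A2, 3 of 11 rose at 11 months (median 0.41), of which Ptx3 and Tgm1 were over the filter level in 0 of 7 WT libraries, and 1 of 11 at 6 months (median 0.42). The gene shared by both ages was Cd14, a lipopolysaccharide co-receptor that microglia also express, at 21.9 ± 3.30 CPM in 5XFAD and 3.04 ± 0.496 CPM in WT cortex at 11 months.

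Of the genes reported in astrocytes near plaques, those that rose numbered 12 of 15 at 11 months (median 1.06) and 7 of 15 at 6 months (median 0.56). Complement C4b had 440.8 ± 30.3 CPM in 5XFAD and 39.7 ± 12.1 CPM in WT cortex at 11 months, and 126.4 ± 16.2 CPM in 5XFAD and 31.0 ± 8.99 CPM in WT cortex at 6 months. Its log2 fold change was 3.47 ± 0.26 at 11 months and 2.03 ± 0.22 at 6 months, and reads of C4b may be shared with its close paralog C4a. The lysosomal protease gene Ctsd rose by 2.10 ± 0.12 and 1.33 ± 0.11, and the tetraspanin gene Cd63 by 1.36 ± 0.13 and 0.74 ± 0.12. Ctsd, Cd63 and several others of this list are expressed by microglia as well. None of the 15 was called for a difference between the ages by edgeR, with 10 at an unadjusted p under 0.05, while DESeq2 called 4.

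The oncostatin M and IL-6 pathway, to which Osmr belongs, was followed through its ligands, receptors and targets. Of 22 tested genes, 5 rose at 11 months (median 0.35) and 1 at 6 months (median 0.12). Osm, the ligand, was at 1.03 ± 0.118 CPM in 5XFAD and 0.205 ± 0.113 CPM in WT cortex at 11 months (log2 fold change 2.34 ± 0.60, adjusted p = 0.0404), and at 0.383 ± 0.222 CPM in 5XFAD and 0.0899 ± 0.0671 CPM in WT cortex at 6 months (adjusted p = 0.256). It was over the filter level in 5 of 6 5XFAD libraries and 0 of 7 WT libraries, so it too entered the test through the genotype where it was high. The target Bcl3 rose at both ages, by 3.26 ± 0.38 at 11 months and by 1.64 ± 0.36 at 6 months. At 11 months Stat3 rose by 0.65 ± 0.10 and Cebpd, an acute phase transcription factor, by 1.44 ± 0.29. The shared receptor subunit Il6st was at 64.7 ± 4.94 CPM in 5XFAD and 51.5 ± 2.30 CPM in WT cortex at 11 months and was not called.

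Of 6 tested genes for microglial factors that act on astrocytes, 4 rose at 11 months and 3 at 6 months. These were the complement genes C1qa, C1qb and C1qc at both ages and Tgfb1 at 11 months. Il1a and Il1b were not called at either age, although all 6 had an unadjusted p under 0.05 at 11 months. Tnf did not pass the filter, and C1qa is also on the list of microglia markers. Around the other receptors and enzymes little moved. In the sphingosine 1-phosphate pathway 1 of 12 genes rose at 11 months, Sgpl1, the lyase that degrades the lipid, by 0.47 ± 0.12, and 0 at 6 months by edgeR or DESeq2, with 0 at an unadjusted p under 0.05. Among hyaluronan and CD44 ligand genes 2 of 14 rose at 11 months and 1 of 14 at 6 months. Spp1, which encodes osteopontin, had 58.2 ± 4.53 CPM in 5XFAD and 7.15 ± 2.26 CPM in WT cortex at 11 months, and 15.8 ± 2.68 CPM in 5XFAD and 7.77 ± 2.99 CPM in WT cortex at 6 months. Msn, which links CD44 to actin, rose by 1.17 ± 0.13 at 11 months and by 0.75 ± 0.12 at 6 months.

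Relatives of the inhibitors and the proteases they act on were read next. Of 22 serpin genes listed, 9 were tested, since most Serpina3 paralogs did not pass the filter. Of those 9, Serping1, the C1 inhibitor, rose by 1.56 ± 0.26 and Serpine2 by 0.48 ± 0.13 at 11 months, and 0 rose at 6 months by edgeR or DESeq2, with 0 at an unadjusted p under 0.05. Of 12 TIMP and metalloproteinase genes, 2 rose at 11 months and 1 at 6 months. Mmp12, the macrophage elastase, was at 0.480 ± 0.153 CPM in 5XFAD and 0.0133 ± 0.0230 CPM in WT cortex at 11 months, and Mmp12 was over the filter level in 3 of 6 5XFAD libraries and 0 of 7 WT libraries, so it entered the test through the genotype where it was high. Mmp19 was at 1.59 ± 0.816 CPM in 5XFAD and 0.241 ± 0.241 CPM in WT cortex. Of 12 iron, copper and lipocalin partners, 1 rose at 11 months, the ferritin light chain gene Ftl1 by 0.65 ± 0.11, and 0 at 6 months by edgeR or DESeq2, with 2 at an unadjusted p under 0.05. No gene of any of these 12 lists was called for a difference between the ages by edgeR, with 0 to 10 per list at an unadjusted p under 0.05. DESeq2 called 1 A1 gene, 4 plaque-associated genes and 1 hyaluronan and CD44 ligand gene. Some genes are on more than 1 list, such as Ggta1 (A1 and plaque-associated) and Stat3 (pan-reactive and oncostatin M). The counts of different lists can therefore hold the same gene.

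**Figure D5:**
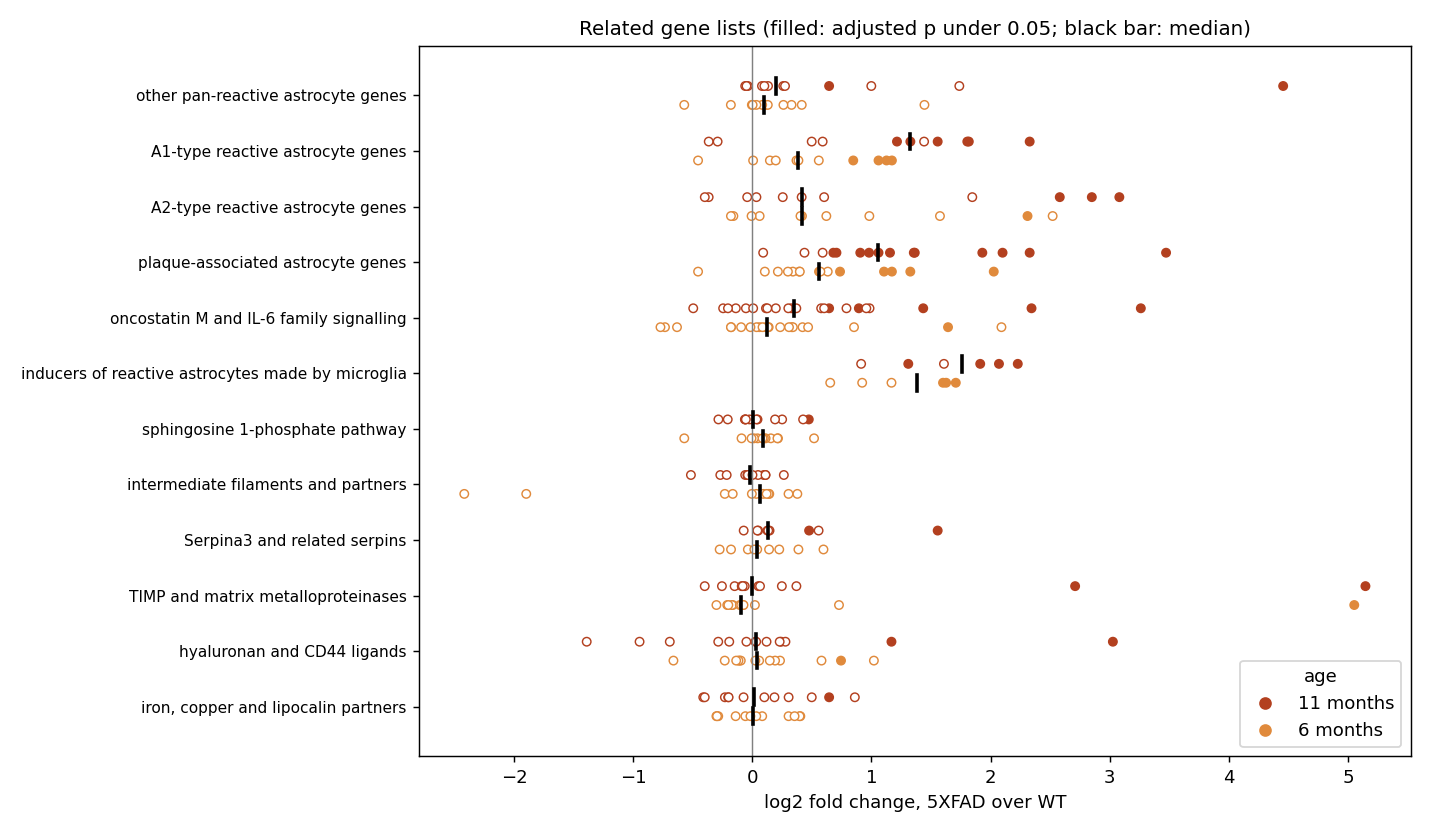
Log2 fold changes, 5XFAD over WT, of the tested genes of 12 related lists at 11 months (upper line of each pair) and 6 months (lower line); each point is 1 gene, filled where its adjusted p is under 0.05, and the black bar is the list's median. Plaque-associated genes have 12 of 15 points filled at 11 months and 7 of 15 at 6 months, while intermediate filament genes have none.

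The genes most like Serpina3n over the 13 libraries were sought by Pearson correlation of log2 CPM, as a description of libraries that share genotype and age. They were Hmox1, heme oxygenase (r = 0.993), Ggta1 (0.991), Lgmn, a lysosomal protease (0.978), Tgfbr2, a TGF-beta receptor (0.974), and Hexa, a lysosomal hexosaminidase (0.972). Their log2 fold changes at 11 months ran from 0.90 for Lgmn to 2.33 for Ggta1, all smaller than that of Serpina3n. The 5 genes most like Gfap were C4b (0.984), Cd300c2 (0.977), Cd9 (0.977), Slc14a1 (0.976) and Ctsz (0.975). Within the list, Gfap (0.947), Vim (0.946), Osmr (0.912) and Aspg (0.911) lay closest to Serpina3n and Lcn2 farthest (0.161).

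Some libraries lay low in their group for most of the list. In 5XFAD cortex at 11 months replicate 2 was the lowest of its group for 7 of the 10 genes, and it was the only male library of that group. In 5XFAD cortex at 6 months, where all 3 libraries were male, replicate 2 was the lowest for 7 of the 10, and replicate 1 the highest for 7. Without 5XFAD replicate 2 of 11 months the Serpina3n difference between the ages was 2.15 (adjusted p = 0.0211). Sex and the 5XFAD groups of the 2 ages are partly confounded. With sex as a covariate the Timp1 and S1pr3 calls at 11 months ended. Those of Serpina3n, Gfap, Vim, Cd44, Osmr and Aspg at 11 months held, as did those of Serpina3n and Gfap at 6 months. The Serpina3n difference was then 2.16 (adjusted p = 0.0408).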

How the data were processed

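RNA sequencing libraries from frontal cortex were grouped by genotype and age from their titles; replicate numbers follow accession order and pair no libraries. Reads were aligned with STAR 2.7.1 and genes quantified with RSEM on GRCm38 (per the submitters' processing notes). Annotation, strand setting and RSEM version: not given in the sources used here. Expected counts are the main deposited values, for which the authors' quantifier shares reads among the genes they fit: 7.24% to 7.71% of values in a library were not whole. The deposited TPM values, scaled by the authors for effective length, were used for levels between genes and in 1 alternative. The deposited gene and effective lengths were used for a length offset. All 55536 identifiers matched GENCODE M21, from which symbols and coordinates were taken; promoter windows are from RefSeq.

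Expected counts were rounded, filtered with filterByExpr of edgeR 4.0.16 (minimum count 10, minimum total 15) and TMM-scaled. The 13 libraries shared 1 model with a mean per group, and 5 contrasts were tested by the robust quasi-likelihood test in R 4.3.3, with Benjamini-Hochberg adjustment over 17483 genes and 0.05 as the threshold; this was tested on simulated data. Standard errors are the absolute unshrunken log2 fold change over the square root of F. No pair of libraries was alike within sampling noise (smallest chi-square per gene 6.1). Correlations used log2 CPM with a prior count of 2 and genes of at least 1 CPM. Alternatives were RLE scaling, DESeq2 1.42.0, limma 3.58.1 on log2(TPM + 1), no low count filter, sex, a length offset, libraries of 1 age, and each library left out; scaling to astrocyte markers was added after seeing the data.

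The genes and lists were chosen with earlier results of these data known. Named were all 10 genes; of each related list up to 4 called genes by p, and others with their values where a sentence concerns their role (Il6st, and Osm as the ligand of Osmr); and the 5 genes most like Serpina3n and Gfap, without pseudogenes, unnamed genes and genes of the sex check. The human transgenes were not analysed here. One gene that the naming rule chose is not reported here.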

Additional observations from a re-analysis of the deposited data

Results flagged for a closer look

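Gfap in WT cortex at 6 months had 1 library far from the other 3: replicate 3 was at 127.2 CPM, against 54.1 to 66.0 CPM in the others, and its gap to the nearest was 0.837 of the group's range. Chance marks about 1 in 20 such groups, and all 10 genes were examined in this group. The groups of 3 libraries were too small for the rule, so single high libraries there, as for Lcn2, could not be flagged. Without that library the Gfap log2 fold change at 6 months was 2.89, against 2.55 with it, and the change with age in WT became 0.87 (adjusted p = 0.027), against 0.53 with it. WT replicate 3 also had the highest summed oligodendrocyte markers of its group, 14264 CPM, against 6768 to 6957 CPM in the others. Whether tissue content had a part in its Gfap level was not tested.

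The genotype effect on Serpina3n differed between the ages by 2.13 on the log2 scale, by the test of the difference itself (adjusted p = 0.00456).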

How the results depend on the processing

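No called result reversed its direction under any alternative. The Serpina3n calls at both ages, for their difference and with age in 5XFAD held under every alternative run, as did the calls of Gfap at both ages and of Vim, Cd44, Osmr and Aspg at 11 months. Genes called at 11 months numbered 443 from libraries of 11 months alone and 424 to 840 with 1 library left out (lowest without 5XFAD replicate 3), against 753. At 6 months they numbered 381 by DESeq2 and 134 to 269 with 1 library left out (lowest without 5XFAD replicate 3), against 231. Genes called for a difference between the ages numbered 30 by DESeq2, which was run without the low count filter (30730 genes) so that tool and filter change together, 4 on log2(TPM + 1), where Ctse, Gpnmb and Asb10 joined Serpina3n, and 1 to 3 with 1 library left out, where Ctsl and Islr joined without 5XFAD replicate 2 of 11 months. Of the 10 genes, those called at 6 months numbered 5 by DESeq2 (Vim, Osmr and Aspg added) and 2 to 4 with 1 library left out (Osmr and Aspg added without WT replicate 3). Those rising with age in 5XFAD numbered 3 to 7 with 1 library left out, 3 without 5XFAD replicate 2 of 6 months or replicate 3 of 11 months; the Gfap call then ended (adjusted p = 0.0572 and 0.069), and those of S1pr3 and Aspg ended under 8 and 5 of 20 alternatives. Those changing with age in WT numbered 1 by DESeq2 (Osmr), 0 to 2 with 1 library left out (Gfap and Osmr without WT replicate 3 of 6 months, Osmr without replicate 1 of 11 months) and 1 when scaled to astrocyte markers (Cd44, -1.25, adjusted p = 0.0169). The causes were not tested. At 11 months the Timp1 call ended without 5XFAD replicates 1 or 3, any WT replicate of that age or 5XFAD replicate 1 of 6 months (adjusted p up to 0.183), and the S1pr3 call without 5XFAD replicate 3 or WT replicates 1 or 3 (up to 0.140). No paired analysis was possible because the labels give no replicate numbers shared between groups. On log2(TPM + 1), which understates low genes, the changes at 11 months of Cd44, Timp1 and Osmr were 1.02, 1.07 and 1.10. Depth limits Steap4 and Timp1, which held few counts in most libraries, while Lcn2 varied from 4 to 567 counts between libraries.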

Other observations

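In each group 1 library had both the most Lcn2 and the most Osmr, namely 5XFAD replicate 2 and WT replicate 2 at 11 months, and 5XFAD replicate 1 and WT replicate 3 at 6 months. The pattern was noticed after the values were seen and is a description with no test. Of all genes with at least 1 CPM, Vwf, the von Willebrand factor gene of endothelium, deviated from its group means most nearly as Lcn2 did (r = 0.90 over 13 libraries, after removing 4 group means). In these 4 libraries Vwf was at 25.6 CPM in 5XFAD and 28.9 CPM in WT at 11 months, and at 17.3 CPM in 5XFAD and 19.7 CPM in WT at 6 months. The other 5XFAD libraries had 13.8 and 9.69 CPM at 11 months and 5.75 and 7.19 CPM at 6 months, and the other WT libraries 12.1 and 16.4 CPM at 11 months and 7.49, 8.45 and 8.58 CPM at 6 months. Slc38a5, an amino acid transporter of brain endothelium, had r = 0.90, Myh15 0.90, Zfp488 0.89, Tmem252 0.88 and the ceruloplasmin gene Cp 0.88, against 0.76 for Osmr, 0.62 for Serpina3n and 0.44 for Gfap. All 4 libraries were male by Xist and Y-linked genes. Over all groups Lcn2 was at 0.205 to 0.504 CPM in the 5 female libraries and at 0.169 to 22.5 CPM in the 8 male libraries, with medians of 0.438 and 1.94 CPM. The part of sex in this was not tested.

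Cd44 and its ligand gene Spp1 had like differences between the ages, 1.81 ± 0.48 and 2.01 ± 0.40 on the log2 scale (adjusted p = 0.673 and 0.453). Neither was called. Spp1 had the most positive difference of the 14 tested hyaluronan and CD44 ligand genes, of which 5 were positive (median -0.08). Islr, an extracellular matrix gene of meninges and fibroblasts, had 20.7 ± 5.50 CPM in 5XFAD and 8.17 ± 1.17 CPM in WT cortex at 11 months, and 10.4 ± 1.13 CPM in 5XFAD and 10.7 ± 1.52 CPM in WT cortex at 6 months, a difference between the ages of 1.38 ± 0.27 (adjusted p = 0.453).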
